A study of Mus musculus with 201 samples.

Results

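The immature granule neuron markers are 10 genes, *Neurod1*, *Neurod2*, *Neurod6*, *Sox11*, *Sox4*, *Eomes*, *Dcx*, *Tubb3*, *Calb2* and *Igfbpl1*. They were named by a list and not by a rule on values, but the list was chosen with earlier results of these data known. The 3 expression tables of the study hold 42983 gene symbols, and all 10 markers have a row in each table. The study sequenced RNA from single mouse dentate granule cells (DGCs), as whole cells or as nuclei, to ask which method preserves activity-induced expression. Of 201 samples, 172 were used. Whole cells came from hippocampi of *Prox1*-GFP mice, in which a green fluorescent protein driven by the *Prox1* promoter marks DGCs, killed 1 h after an injection of saline (38 of 47 cells used) or of pentylenetetrazole (PTZ, a GABA(A) receptor antagonist that causes seizures; 30 of 35 cells used), dissociated with papain and sorted as GFP+. Hippocampi of 2 mice were pooled for each treatment, the age of these mice is not given in the sources used here, and the sample titles end in a different code for each treatment, whose meaning is not given, so whatever the code stands for and the treatment cannot be told apart. Nuclei came from C57BL/6 mice (female and 8 weeks old, per the methods) by Dounce homogenization. NE nuclei were taken after exposure to an environment new to the mouse (NE), sorted as Prox1+/Fos+ (40 of 48 used) or Prox1+/Fos- (41 of 48 used), and amplified under 4 conditions. Home cage (HC) nuclei were sorted as NeuN+/Prox1+ (all 23 used) and amplified on a microfluidic chip.

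No sample label names an animal, so each group counted as 1 sample (a pool of 2 mice, or nuclei with no animal named), and no p-value was computed over cells. The study took nuclei as replicates in its own tests, which was not followed here for this reason. Levels summed over a group are in CPM (counts-per-million), scaled by the summed total of the group. A gene was called detected above 1 TPM (transcripts-per-million, a level scaled by transcript length and by the total of the sample). Shares of cells are given with exact (Clopper-Pearson) 95% binomial intervals and summed levels with exact 95% Poisson intervals; both cover counting error, not the spread between mice. Levels in bulk sums cannot tell fewer positive cells from less RNA per cell, so the shares stand beside them.

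Newborn DGCs arise through life from stem cells at the base of the granule cell layer. They pass through a dividing intermediate progenitor that expresses *Eomes* (TBR2), then through a postmitotic stage marked by doublecortin and, for a short time, by calretinin, before they switch to calbindin. NEUROD and SOXC transcription factors act in sequence along this path, and several of them stay on in mature granule neurons. An immature DGC therefore carries many of these markers together with PROX1 and little or no *Calb1*.

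*Neurod1*, *Neurod2* and *Sox11* were the 3 markers found in the most cells in whole cells, in NE nuclei and in HC nuclei alike, and their upstream sequences are shown because these 3 share a motif that the other 5 markers with a sequence lack. NEUROD factors bind E-boxes, the hexamer CANNTG. RefSeq (GRCm38.p6) promoter sequences matched 8 of the 10 markers, all except *Calb2* and *Igfbpl1*. The 250 bases upstream of the RefSeq start, which is not always the gene end given below from GENCODE (for *Neurod1* part of the window lies inside the GENCODE gene), are printed 5′ to 3′ on the strand of the gene, with every CANNTG in capitals; all 3 genes lie on the minus strand.
Neurod1, chr2:79456637-79456886: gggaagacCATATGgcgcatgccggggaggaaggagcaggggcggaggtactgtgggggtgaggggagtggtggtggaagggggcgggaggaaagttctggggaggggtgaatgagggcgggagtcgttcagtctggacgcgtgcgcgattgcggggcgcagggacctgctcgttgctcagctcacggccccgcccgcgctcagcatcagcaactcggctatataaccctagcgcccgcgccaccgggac
Neurod2, chr11:98329646-98329895: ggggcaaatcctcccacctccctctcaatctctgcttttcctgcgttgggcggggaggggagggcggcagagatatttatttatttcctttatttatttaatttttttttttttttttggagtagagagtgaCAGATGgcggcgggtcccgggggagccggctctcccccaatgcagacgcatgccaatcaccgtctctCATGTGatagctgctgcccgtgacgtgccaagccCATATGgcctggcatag
Sox11, chr12:27342719-27342968: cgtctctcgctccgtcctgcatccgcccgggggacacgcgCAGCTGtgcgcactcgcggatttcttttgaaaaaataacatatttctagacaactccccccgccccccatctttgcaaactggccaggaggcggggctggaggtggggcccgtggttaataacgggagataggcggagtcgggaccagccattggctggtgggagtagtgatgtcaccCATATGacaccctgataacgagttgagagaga

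The form CATATG, which reads the same on both strands, lies in each of these 3 sequences, 242 bases before the start in *Neurod1*, 17 in *Neurod2* and 32 in *Sox11*, and in none of the other 5. Of 27025 upstream sequences of the same length, 3.47% hold CATATG and 66.0% hold any CANNTG; this form was picked out after the sequences were read, the 2 searches overlap, and a match is a description of letters, not of a bound site.

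*Neurod1* and *Neurod2* encode basic helix-loop-helix factors of granule neuron differentiation and survival. *Neurod1* (chromosome 2, 79452521 to 79456751, minus strand, 2 exons) was detected in 31 of 38 saline-treated cells (81.6%, 65.7 to 92.3) and 23 of 30 PTZ-treated cells (76.7%, 57.7 to 90.1). In those cells its level ran from 6.14 through a median of 84.2 to 919 TPM after saline, and from 3.87 through 63.9 to 468 TPM after PTZ. It was found in 14 of 41 FOS- nuclei (34.1%, 20.1 to 50.6), 12 of 40 FOS+ nuclei (30%, 16.6 to 46.5) and 4 of 23 HC nuclei (17.4%, 4.95 to 38.8). Both whole-cell shares lay above all 3 nuclear shares, and their intervals did not overlap; the sets also differ in method and depth. *Neurod1* lies inside the *Cerkl* locus on the same strand, and 6.37% of its 31-base stretches also occur in *Cerkl* transcripts.

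*Neurod2* (chromosome 11, 98325415 to 98329648, minus strand, 2 exons) was the most widely detected marker after PTZ and in NE nuclei. It was present in 31 of 38 saline-treated cells (81.6%, 65.7 to 92.3) and 27 of 30 PTZ-treated cells (90%, 73.5 to 97.9), at 2.17, 68.7 and 293 TPM (lowest, median, highest) and at 13.3, 89.1 and 340 TPM. In nuclei it was present in 24 of 41 FOS- (58.5%, 42.1 to 73.7), 27 of 40 FOS+ (67.5%, 50.9 to 81.4) and 8 of 23 HC nuclei (34.8%, 16.4 to 57.3). Where it was present, the median was 53.5 TPM in FOS-, 109 TPM in FOS+ and 161 TPM in HC nuclei, so the lowest of the 5 medians was in FOS- nuclei and the highest in HC nuclei.

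*Neurod6*, a related factor best known from hippocampal pyramidal neurons (chromosome 6, 55677822 to 55681263, minus strand, 2 exons), was rare. It was detected in 4 of 38 saline-treated cells (10.5%, 2.94 to 24.8), 7 of 30 PTZ-treated cells (23.3%, 9.93 to 42.3), 2 of 41 FOS- and 2 of 40 FOS+ nuclei, and 0 of 23 HC nuclei. Its highest value, 1302 TPM, came from a PTZ-treated cell that stood apart, with *Prox1* at 8.28 TPM and *Spink8*, a marker of CA1 pyramidal cells, at 485 TPM, from a library of 71231 counts. All 11 whole cells with *Neurod6* also had *Neurod1* and *Tubb3*, and 10 had *Neurod2*. All 3 NEUROD genes were found together in 3 saline-treated cells, 7 PTZ-treated cells, 2 FOS+ nuclei and no other nucleus.

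*Sox11* and *Sox4* are the SOXC factors that switch on neuronal genes such as *Dcx* and *Tubb3* in newborn neurons. *Sox11* (chromosome 12, 27334264 to 27342574, minus strand, 1 exon) was found in every group at like shares, 21 of 38 saline-treated cells (55.3%, 38.3 to 71.4), 18 of 30 PTZ-treated cells (60%, 40.6 to 77.3), 17 of 41 FOS- nuclei (41.5%, 26.3 to 57.9), 18 of 40 FOS+ nuclei (45%, 29.3 to 61.5) and 9 of 23 HC nuclei (39.1%, 19.7 to 61.5). All 5 intervals overlapped. Its median where detected was 29.1, 30.5, 49.6, 50.2 and 37.7 TPM in the same order. Its highest levels were 1031 TPM in a saline-treated cell and 545 TPM in a FOS- nucleus.

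*Sox4* (chromosome 13, 28948919 to 28953713, minus strand, 1 exon) was much scarcer, in 3 of 38 saline-treated cells (7.89%, 1.66 to 21.4) at up to 16.6 TPM, in 6 of 30 PTZ-treated cells (20%, 7.71 to 38.6) at up to 138 TPM, in 1 FOS- nucleus, and in 0 of 40 FOS+ and 0 of 23 HC nuclei, which allows shares of up to 7.5% and 13% by a limit of 3 positive nuclei (exact upper limits 8.81% and 14.8%). Of the 9 whole cells with *Sox4*, 7 had *Sox11*. *Sox11* without *Sox4* was the commoner state, in 32 of the 39 whole cells with *Sox11*. The 2 genes share little sequence: 0.378% of the 31-base stretches of *Sox4* occur in *Sox11*.

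*Eomes*, the T-box factor of intermediate progenitors (chromosome 9, 118478212 to 118486132, plus strand), was close to absent. It was detected in 1 PTZ-treated cell at 2.96 TPM, from 14 counts in a library of 5129240, and in 1 FOS- nucleus at 1.32 TPM. Progenitor genes gave a similar picture in whole cells: *Nes*, *Sox2* and *Neurog2* were not detected in any, and *Gfap* and *Hopx* were both found at high level in the same PTZ-treated cell (833 and 290 TPM), which also had *Gja1* at 409 TPM and *Sox4* at 105 TPM and only *Igfbpl1*, at 1.68 TPM, among the other markers.

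**Figure D1:**
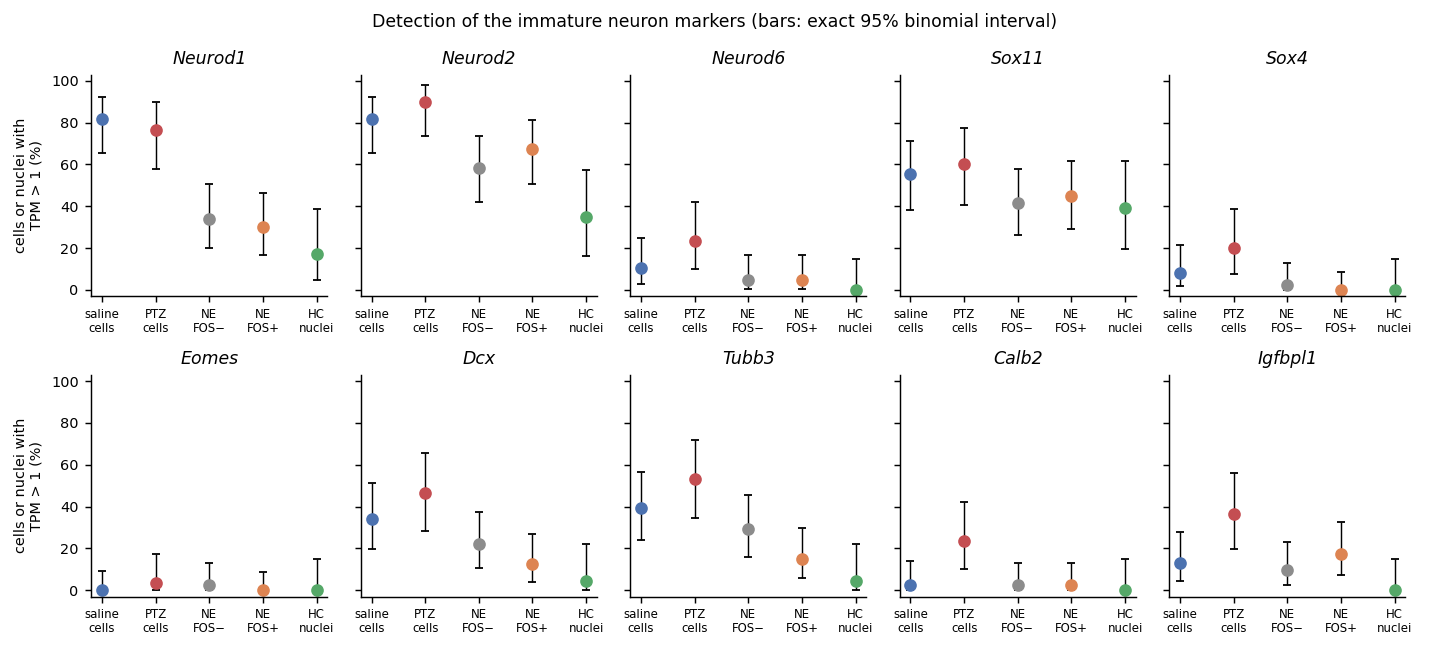
Share of cells or nuclei with TPM above 1 (y axis, percent) for each marker in the 5 groups (x axis), with exact 95% binomial intervals as bars. *Neurod1* ranges from 17.4% to 81.6%, *Sox11* from 39.1% to 60%, and *Sox4*, *Eomes*, *Neurod6* and *Calb2* are below 25% in every group.

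*Dcx* and *Tubb3* build the young neuron's microtubules. *Dcx* (chromosome X, 143855842 to 143933311, minus strand, up to 7 exons), which encodes the microtubule-binding doublecortin, was found in 13 of 38 saline-treated cells (34.2%, 19.6 to 51.4) and 14 of 30 PTZ-treated cells (46.7%, 28.3 to 65.7). Its level in them ran from 2.59 through 55.8 to 560 TPM after saline and from 3.99 through 29.4 to 278 TPM after PTZ. It was found in 9 of 41 FOS- nuclei (22%, 10.6 to 37.6), 5 of 40 FOS+ nuclei (12.5%, 4.19 to 26.8) and 1 of 23 HC nuclei (4.35%, 0.11 to 21.9). *Dcx* RNA was not confined to cells without calbindin: 18 of the 27 whole cells with *Dcx* also had *Calb1*, against 38 of the 41 without it.

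*Tubb3*, the neuronal class III beta-tubulin (chromosome 8, 123411424 to 123422015, plus strand), reached the highest level of all 10 markers, 3523 TPM in a saline-treated cell. It was detected in 15 of 38 saline-treated cells (39.5%, 24 to 56.6), 16 of 30 PTZ-treated cells (53.3%, 34.3 to 71.7), 12 of 41 FOS- nuclei (29.3%, 16.1 to 45.5), 6 of 40 FOS+ nuclei (15%, 5.71 to 29.8) and 1 of 23 HC nuclei. Although *Tubb3* is taught as a pan-neuronal gene, 37 of the 68 whole cells did not reach 1 TPM. A read-through gene, *Gm20388*, overlaps it on the same strand, and 3.21% of its 31-base stretches occur in other genes, mostly *Tubb6*.

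*Calb2*, which encodes the calcium-binding protein calretinin (chromosome 8, 110137502 to 110168210, minus strand), was detected in 1 of 38 saline-treated cells (2.63%, 0.0666 to 13.8) at 361 TPM and in 7 of 30 PTZ-treated cells (23.3%, 9.93 to 42.3), in which it ran from 1.46 through 116.5 to 1490 TPM. All 8 of these cells had *Dcx*, *Tubb3* and *Neurod2*, and 7 had *Igfbpl1*, whereas *Dcx* was found in 19 of the 60 cells without *Calb2*. Calretinin also marks hippocampal interneurons. In whole cells the interneuron genes *Gad2*, *Slc32a1* and *Vip* were not detected in any, whereas *Htr3a* was found in 2 of the 8 cells with *Calb2* and in no other whole cell, at 500 TPM in a PTZ-treated cell with *Calb2* at 458 TPM and at 1.21 TPM in the PTZ-treated cell with *Calb2* at 1490 TPM. In nuclei the highest *Calb2*, 683 TPM, came from a FOS- nucleus with *Vip* at 5585 and *Slc32a1* at 128 TPM and no other marker of the 10; the other positive nucleus was FOS+, at 47.3 TPM from 6 counts, and *Calb2* was detected in 0 of 23 HC nuclei.

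*Igfbpl1*, an insulin-like growth factor binding protein-like gene of newborn neurons (chromosome 4, 45809468 to 45826923, minus strand, 5 exons), shared no 31-base stretch with another gene, as was also true of *Calb2*. It was detected in 5 of 38 saline-treated cells (13.2%, 4.41 to 28.1), with values of 1.13, 2.8, 254, 381 and 506 TPM, and in 11 of 30 PTZ-treated cells (36.7%, 19.9 to 56.1), from 1.56 through 44.4 to 498 TPM. The values left a wide gap: 8 whole cells lay between 184 and 506 TPM, and the highest of the other 60 reached 44.4 TPM. In nuclei it was low, at up to 3.24 TPM in 7 of 40 FOS+ nuclei (11.6 counts in all), and at 152 TPM in the highest of 4 positive FOS- nuclei. It was detected in 0 of 23 HC nuclei.

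**Figure D2:**
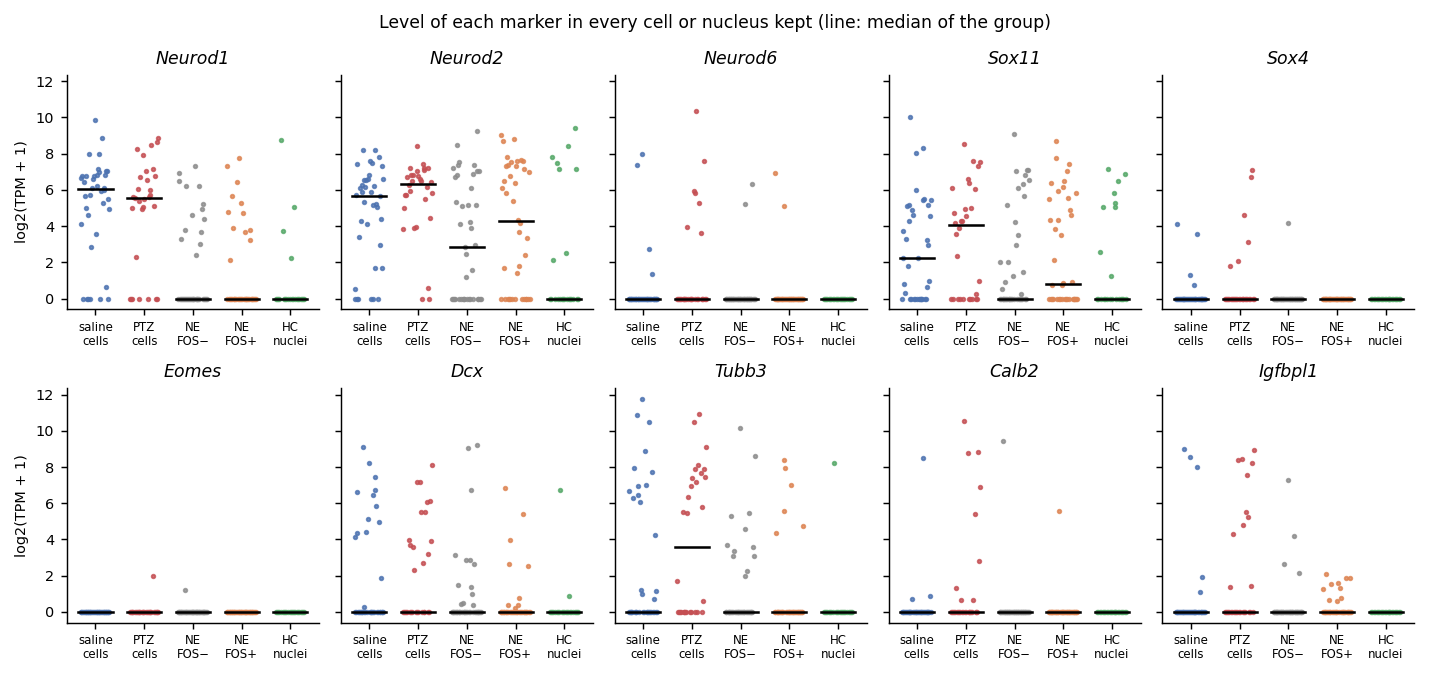
Level of each marker as log2(TPM + 1) (y axis) in every cell or nucleus used (points) by group (x axis), with the median of each group as a line. The medians of *Neurod6*, *Sox4*, *Eomes*, *Dcx*, *Calb2* and *Igfbpl1* are 0 in all 5 groups, so the values above the axis come from subsets of cells.

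The 8 whole cells with *Igfbpl1* above 100 TPM (3 of 38 saline-treated and 5 of 30 PTZ-treated), picked out after their values were seen, carried 7 to 9 of the 10 markers each. All 8 had *Dcx* (44.6 to 560 TPM), *Sox11* (97.7 to 1031), *Neurod1* (129 to 919), *Neurod2* (21 to 340) and *Tubb3* (124 to 3523); 6 had *Neurod6*, 5 had *Calb2*, 4 had *Sox4*, and *Eomes* was at 0 in all 8. The interneuron gene *Htr3a* was found in 2 of them, the 2 with *Htr3a* named above. Their *Prox1* was at 743 to 2109 TPM; 1 of the other 60 whole cells passed 743 TPM, and their median was 312 TPM. *Calb1*, the calbindin of mature DGCs, was at 0.96 TPM or below in all 8 and was detected in 56 of the other 60. Other genes of mature granule cells were not absent from the 8. *Rbfox3* was detected in 6 of them, at up to 471 TPM. *Plk5* was detected in 4 (median of the 8 at 0.6 TPM, highest 312) and *C1ql2* in 4 (median 1.005 TPM, highest 348). All genes of a cell share its library, so these markers are not independent readings of it.

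These 8 cells also carried genes of young neurons that are not among the 10. Of a list of 16 such genes they had 12 to 15 each, and the PTZ-treated cell with all 10 markers also had 15. Not every gene of that list set the 8 apart. *Stmn4* was in all 8 but also in 92.1% of all saline-treated and 90% of all PTZ-treated cells, *Sema3c* was in 5 and *Draxin* in 3. *Tubb2b*, a tubulin of growing neurites, was at 1007 to 4180 TPM, *Dpysl5*, a collapsin response mediator, at 209 to 650 TPM, and *Cd24a*, a surface protein of newborn neurons, at 136 to 2715 TPM. *Tubb2b* passed their lowest value in 1 of the other 60 cells, the PTZ-treated cell with *Gfap*, *Cd24a* in 2, both PTZ-treated cells with over 10000 genes (187 and 331 TPM), and *Dpysl5* in none. The proliferation gene *Mki67* stayed at or below 0.14 TPM in all 8. It was scarce in whole cells at large, in 7.89% of all saline-treated and 16.7% of all PTZ-treated cells, so it does not set the 8 apart. Other proliferation genes were not read in these 8 cells. *Arc*, an activity-induced gene, was at or below 1.32 TPM in all 8, whereas *Fos* was at 190 to 3402 TPM; *Arc* was detected in 29 of the other 60 cells. Their libraries had 401331 to 2240053 counts, the lowest being the lowest of all saline-treated cells used, and 4017 to 6297 genes, with a median of 4698.5 genes against 6446.5 in all saline-treated and 5759.5 in all PTZ-treated cells.

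**Figure D3:**
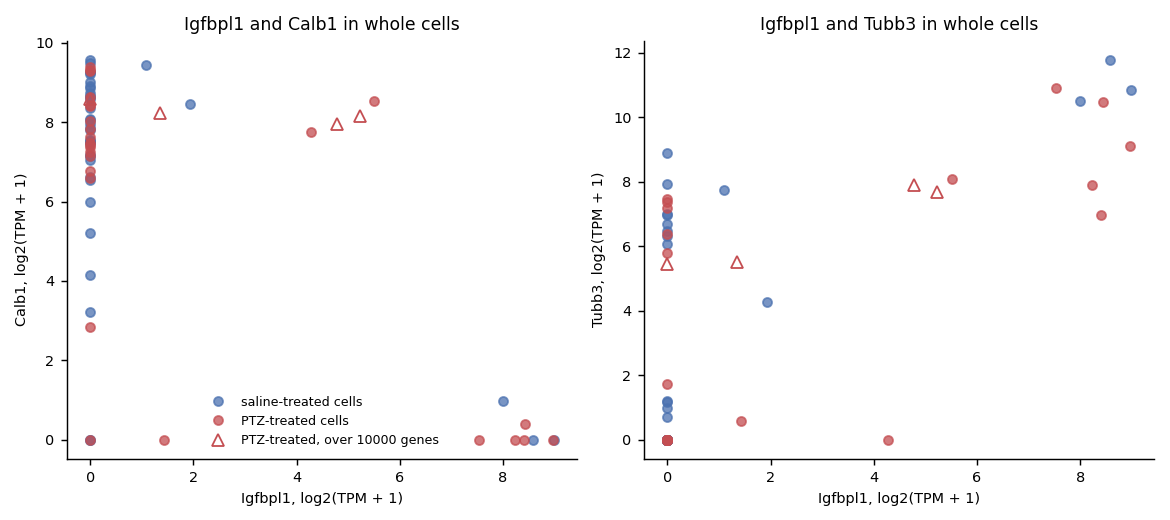
*Calb1* (left) and *Tubb3* (right) against *Igfbpl1* in the 68 whole cells, all as log2(TPM + 1), by treatment; triangles are the 4 PTZ-treated cells with over 10000 genes. The 8 cells with *Igfbpl1* above 100 TPM sit at the bottom right of the *Calb1* panel (at most 0.96 TPM) and at the top right of the *Tubb3* panel (at least 124 TPM).

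Across the 68 whole cells the genes whose levels ranked most like *Igfbpl1*, among 11455 genes found in at least 10 cells, were *Fnbp1l* (Spearman rho = 0.87), *Ddah2* (0.87) and *Cd24a* (0.85). For *Tubb3* they were *Igfbpl1* itself (0.63), *Cd24a* (0.60) and *Neurod6* (0.60). For *Neurod1* they were *Hn1* (0.59), *Dpysl5* (0.59) and *Cd24a* (0.57), for *Dcx* they were *C530008M17Rik* (0.64), *Stmn2* (0.63) and *Dynlt1b* (0.61), and for *Sox11* they were *Rpl34* (0.64), *Lppr3* (0.62) and *Zfp57* (0.61). No gene reached 0.5 for *Neurod2*. These are descriptions over cells that share libraries and depth, and the values for *Igfbpl1* rest largely on 1 set of 8 cells.

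Most other whole cells held a few markers. The median number of the 10 markers detected was 3 in saline-treated cells (1 to 9), 4 in PTZ-treated cells (0 to 10), 2 in FOS- nuclei (0 to 5), 2 in FOS+ nuclei (0 to 6) and 1 in HC nuclei (0 to 3). At least 5 markers were found in 4 of 38 saline-treated cells (10.5%, 2.94 to 24.8), 11 of 30 PTZ-treated cells (36.7%, 19.9 to 56.1), 2 of 41 FOS- nuclei, 3 of 40 FOS+ nuclei and 0 of 23 HC nuclei. *Neurod1*, *Neurod2* and *Sox11* occurred all together in 14 of 38 saline-treated and 16 of 30 PTZ-treated cells, in 5 of 41 FOS- and 7 of 40 FOS+ nuclei, and in 1 HC nucleus. *Dcx* and *Tubb3* were found together in 6 saline-treated and 13 PTZ-treated cells, and in 2 FOS-, 1 FOS+ and 1 HC nucleus.

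At least 7 markers were found in 11 whole cells, which were the 8 cells above and 3 of the 4 PTZ-treated cells with over 10000 genes. Those 4 had 10244 to 12220 genes, while all other whole cells had 7854 or fewer, and 2150060 to 5129240 counts. They carried 6, 7, 8 and 10 markers, but with *Calb1* at 248 to 384 TPM and *C1ql2*, a mature DGC gene, at 551 to 956 TPM. The cell with all 10 markers was the deepest library of the study. Whether a well held more than 1 cell was not tested. Within groups, cells above the median total of their group had a mean of 4.93 markers after PTZ against 3.73 in the shallower cells, 3.37 against 3.16 after saline, 2.5 against 1.67 in FOS- nuclei, 2.25 against 1.65 in FOS+ nuclei and 0.727 against 1.25 in HC nuclei.

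**Figure D4:**
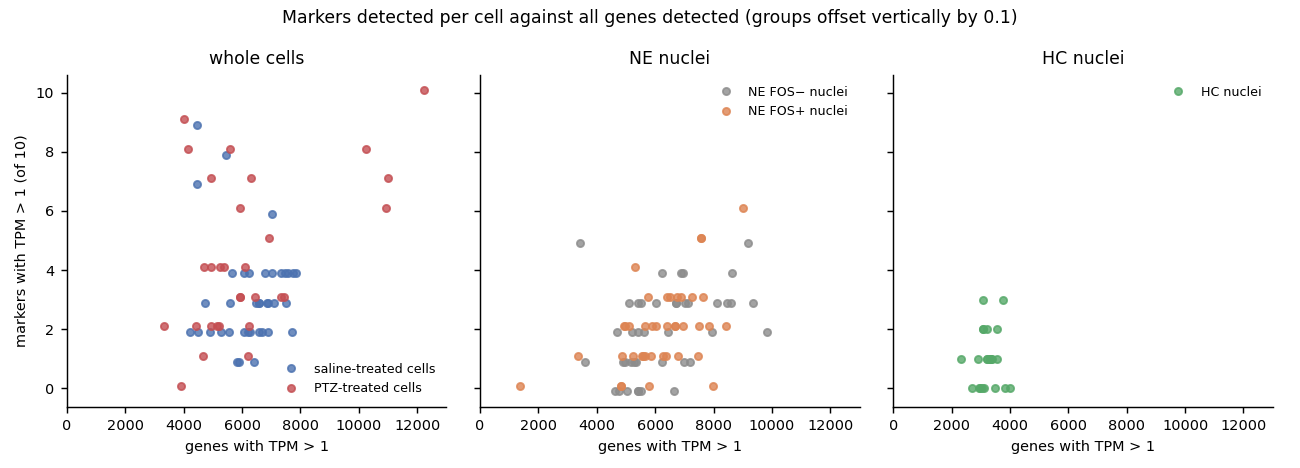
Number of the 10 markers detected (y axis) against the number of genes with TPM above 1 (x axis) in each cell or nucleus (points), by table; points of the groups are offset vertically by 0.1. Cells with 7 or more markers are either between 4017 and 6297 genes or above 10000 genes, and HC nuclei have at most 3 markers and 3986 genes.

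PTZ-treated and saline-treated whole cells were compared to ask whether an acute seizure changed these RNAs 1 h later. Of the 9 markers found in at least 5 cells, 4 had a summed level at least 2-fold higher after PTZ and none at least 2-fold lower, against 12.4% and 12.9% of the 13748 genes compared by the same rules (25.2% in either direction). Detection was higher by at least 20 percentage points after PTZ for 2 markers and lower for none, against 3.29% and 4.59% of all genes (7.88% in either direction). The median log2 ratio of the 9 was 0.70, beside -0.03 over all genes, and the share of cells was higher after PTZ for 8 of 9, beside 6276 of 13748. No replicate mouse stands behind these differences.

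*Sox4* had a summed level of 28.1 CPM (26.5 to 29.7) after PTZ and 1.23 (0.917 to 1.62) after saline, a log2 ratio of 4.51. *Calb2* followed with 46.5 CPM (44.4 to 48.6) against 3.01 (2.50 to 3.59), a log2 ratio of 3.95, and a share of cells higher by 20.7 points. *Igfbpl1* had 71.1 CPM (68.6 to 73.7) against 23.1 (21.7 to 24.6), a log2 ratio of 1.62, and a share higher by 23.5 points. *Neurod6* had 21.3 CPM (19.9 to 22.8) against 9.97 (9.03 to 11), a log2 ratio of 1.10. These sums rest on few cells: the top cell alone held 42.2% of the *Calb2* counts, 48.7% of the *Sox4* counts and 31.1% of the *Neurod6* counts after PTZ, and 98.4%, 60.6% and 80.4% after saline. Without the top cell of each group the log2 ratio of *Neurod6* was 2.91, and *Calb2* was under the floor of 3 counts in saline-treated cells, so no ratio is given. With every cell weighted equally, as mean TPM, the log2 ratio of *Igfbpl1* was 0.99 and no longer passed 2-fold.

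The more widespread markers were closer together. The log2 ratio was 0.31 for *Dcx* (95.1 against 76.8 CPM), 0.34 for *Neurod1* (181 against 143 CPM), 0.46 for *Tubb3* (240 against 175 CPM), 0.51 for *Neurod2* (154 against 108 CPM) and 0.70 for *Sox11* (255 against 157 CPM). With every cell weighted equally, 4 of these 5 turned, to -0.47 for *Dcx*, -0.22 for *Tubb3*, -0.20 for *Sox11* and -0.08 for *Neurod1*, and *Neurod2* was at 0.23. *Neurod1* was the 1 marker found in a lower share of PTZ-treated cells, 76.7% against 81.6%. For each of the 10 markers the binomial intervals of the 2 treatments overlapped.

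The cells that stood apart were all PTZ-treated, and the comparison was repeated without them. Without the 4 cells with over 10000 genes and the 2 with *Gfap* or *Spink8* above 100 TPM, 3 markers stayed at least 2-fold higher after PTZ, with log2 ratios of 4.46 for *Calb2*, 3.81 for *Sox4* and 2.10 for *Igfbpl1*, while *Neurod6* fell to 0.84 and no marker differed by 20 points in share (16 points for *Igfbpl1* and 18.2 for *Calb2*). The share with *Sox4* then differed by 0.44 points. With every cell thinned to 50000 counts, the shares were 17.1% against 2.78% for *Calb2* and 26.8% against 8.63% for *Igfbpl1*. A thinned share is the expected share of cells with any count left, not with TPM above 1. It thus differs from the other shares in rule as well as in depth.

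Of a wider list of 16 immature neuron genes, 6 of the 14 compared were at least 2-fold higher after PTZ and none lower, with a median log2 ratio of 0.85 and a higher share after PTZ for 8 of 14. *Tubb2b* was found in 73.3% of PTZ-treated and 26.3% of saline-treated cells (536 against 108 CPM), *Dpysl5* in 40% and 18.4% (224 against 44.5 CPM), *Dpysl3* in 43.3% and 23.7%, and *Sema3c*, a guidance cue, in 23.3% and 5.26%. Of 10 mature granule cell genes, none differed 2-fold, and *Plk5* was found in 53.3% against 81.6% of cells and *C1ql2* in 80% against 97.4%. The doublecortin relatives *Dclk1*, *Dclk2* and *Dclk3* did not differ 2-fold. Pyramidal and mossy cell genes moved with the markers: 5 of 7 were detected in each treatment, *Drd2* was detected in neither, all 3 compared were at least 2-fold higher after PTZ, and their summed level per cell ran from 0 to 529 TPM (median 11.3) after PTZ and from 0 to 277 TPM (median 0) after saline. *Fibcd1* was found in 40% against 13.2% of cells. Of 4 astrocyte genes 3 were detected after PTZ and 1 after saline, *Aqp4* was detected in neither, and their summed level per cell ran from 0 to 1119 TPM (median 10.8) after PTZ and from 0 to 200.3 TPM (median 13) after saline. Their part in the result was not tested. Of the other lists, 1 of 2 stem cell and progenitor genes compared was at least 2-fold lower after PTZ, 1 of 3 proliferation genes at least 2-fold higher, and none of the interneuron, oligodendrocyte or microglia and endothelium genes compared differed 2-fold. None of 6 activity genes differed 2-fold, with *Fos* in 86.7% of PTZ-treated and 78.9% of saline-treated cells.

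FOS+ and FOS- nuclei from the NE were compared to ask whether DGCs sorted by FOS protein differ in these genes. Before its own comparison the study set aside FOS+ nuclei whose RNA grouped with FOS- nuclei. Such nuclei were not removed here, so the FOS+ group is the sorted one. Of the 6 markers found in at least 5 nuclei, *Neurod2* was at least 2-fold higher in summed level in FOS+ nuclei and *Dcx* and *Igfbpl1* at least 2-fold higher in FOS- nuclei, against 17.7% and 27.9% of the 16387 genes compared (45.6% in either direction). No marker differed by 20 points in share, against 4.3% of genes higher in FOS+ nuclei and 3.7% higher in FOS- nuclei (8% in either direction). The median log2 ratio over all genes was -0.20, so a ratio near that value is the middle of the table; with TMM factors that median was 0.05 and the genes past 2-fold split 3639 higher to 3777 lower in place of 2908 to 4569.

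*Neurod2* had 222 CPM (214 to 230) in FOS+ and 94.6 CPM (89.6 to 99.9) in FOS- nuclei, a log2 ratio of 1.23, and a share higher by 8.96 points. Its summed level was higher in FOS+ nuclei in 3 of the 4 amplification conditions, and lower (121 against 164 CPM) with 10 μM template-switching oligonucleotide (TSO) and ERCC spike-in RNA at 1 to 200. With every nucleus weighted equally, as mean TPM, its log2 ratio was 0.57. *Sox11* (269 against 172 CPM) and *Neurod1* (30.9 against 29.9 CPM) differed less than 2-fold.

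*Dcx* went the other way, with 6.89 CPM (5.60 to 8.38) in FOS+ and 70.7 CPM (66.4 to 75.3) in FOS- nuclei, a log2 ratio of -3.36. A single FOS- nucleus, at 586 TPM, held 69.4% of the FOS- counts, and without the top nucleus of each group the log2 ratio was -2.52. The level of *Dcx* was lower in FOS+ nuclei in 3 of the 4 conditions and higher in the fourth. *Tubb3* had 23.8 CPM against 45, with 71% of the FOS- counts in the top nucleus. *Igfbpl1* was found in more FOS+ than FOS- nuclei (17.5% against 9.76%) but at a lower summed level, 0.80 CPM (0.407 to 1.41) against 3.82 (2.87 to 5.0), and no FOS+ nucleus passed 5 TPM. The levels of *Tubb3* and of *Igfbpl1* were each higher in FOS+ nuclei in 2 of the 4 conditions and lower in 2. With detection set at 5 TPM the order of the shares turned, to a difference of -7.32 points.

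By TPM, the same FOS- nucleus had the highest *Igfbpl1* and the highest *Tubb3* of the NE nuclei; the nucleus with the most *Tubb3* counts was another, deeper one, at 383 TPM. The first held *Igfbpl1* at 152 TPM, *Sox11* at 545, *Tubb3* at 1150 and *Sox4* at 17.2 TPM, together with *Neurod2* at 4.61, *Cd24a* at 1653 and *Sema3c* at 873 TPM; *Cd24a* was found in all 8 and *Sema3c* in 5 of the 8 whole cells with high *Igfbpl1*. It differed from those cells in *Dcx*, *Neurod1*, *Tubb2b* and *Dpysl5*, all at 0, in *Prox1*, at 115 TPM, and in *Calb1*, at 17702 TPM. Its library was shallow, with 111667 counts and 3421 genes, the fewest genes of the FOS- nuclei used. The 8 whole cells had 401331 to 2240053 counts, and the part of depth in these zeros was not tested. *Calb1* was at 837 TPM or more in all 81 NE nuclei, also in the FOS- nucleus with *Vip* at 5585 TPM. It thus separated no nuclei in this set, and the *Calb1*-negative pattern of the 8 whole cells could not be looked for there.

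Of the relatives of doublecortin, *Dclk1* and *Dclk2* could be compared. *Dclk1*, a doublecortin-like kinase, was found in all 40 FOS+ and 39 of 41 FOS- nuclei, but at 4301 against 520 CPM, a log2 ratio of 3.05, and its level was higher in FOS+ nuclei in 4 of 4 conditions. *Dclk2* was found in 15% of FOS+ and 39% of FOS- nuclei, a lower share in FOS+ nuclei as for *Dcx*. Its summed level was close, at 46.6 against 56 CPM, a log2 ratio of -0.26 beside a median of -0.20 over all genes. That level was higher in FOS+ nuclei in 2 conditions and lower in 2. In the wider immature list 3 of the 13 genes compared were at least 2-fold higher and 4 at least 2-fold lower in FOS+ nuclei. *Stmn4*, a stathmin that regulates microtubules, was found in 70% against 24.4% of nuclei, *Draxin*, a guidance protein, in 47.5% against 19.5%, and *Dpysl5* in 87.5% against 68.3%, with 427 against 10.7 CPM and a higher level in FOS+ nuclei in 4 of 4 conditions. The levels of *Stmn4* and *Draxin* were each higher in FOS+ nuclei in 3 of the 4 conditions. *Stmn2* was found in 25% against 43.9% of nuclei. Of the 10 mature granule cell genes 1 was at least 2-fold higher and 2 at least 2-fold lower, *Plk5* in 5% against 24.4% of nuclei. All 6 activity genes were at least 2-fold higher in FOS+ nuclei, *Arc* in 77.5% against 2.44% of them.

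**Figure D5:**
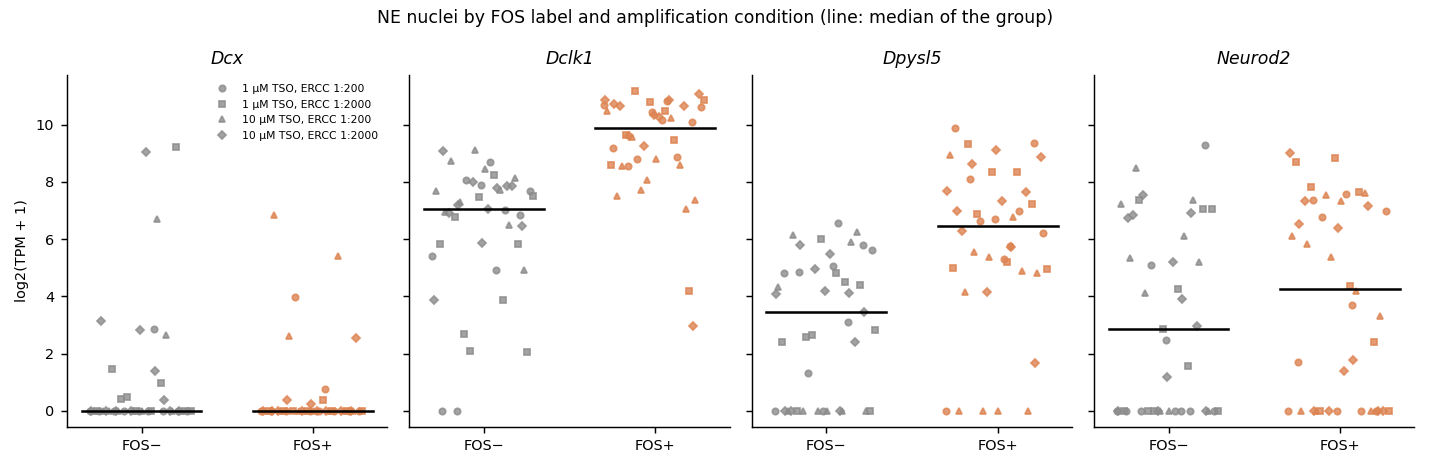
Level of *Dcx*, *Dclk1*, *Dpysl5* and *Neurod2* as log2(TPM + 1) (y axis) in FOS- and FOS+ NE nuclei (x axis), with the amplification condition as the symbol and the group median as a line. *Dclk1* and *Dpysl5* have a higher summed level in FOS+ nuclei under each of the 4 conditions, whereas *Dcx* is at 0 in most nuclei of both groups.

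Interneuron genes were read in the same nuclei as *Calb2*. In FOS- nuclei 6 of its 7 genes were detected, with a summed level of 0 to 5824 TPM per nucleus (median 15.7), and in FOS+ nuclei 5 of 7, with 0 to 1430 TPM (median 32.9); *Htr3a* was at 0 in both. *Gad1* was also found in 86.8% of saline-treated whole cells, so it did not separate cell types here. The FOS- nucleus with *Vip* at 5585 TPM was at 0 for all 6 compared markers. Leaving it out therefore changes only the totals of its group and is no check of their log2 ratios.

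HC nuclei carried the fewest markers. *Sox11* was found in 9, *Neurod2* in 8, *Neurod1* in 4, and *Dcx* and *Tubb3* in 1 of 23 nuclei, and *Calb2*, *Sox4*, *Neurod6*, *Eomes* and *Igfbpl1* in none, which allows up to 13% each by the limit of 3 nuclei (exact upper limit 14.8%). The single *Dcx* nucleus was also the *Tubb3* nucleus (105 and 303 TPM) and had *Sox11* at 141 TPM with *Calb1* at 197 TPM. HC, NE and whole-cell libraries differ in chemistry, read length, strain and depth, with 2329 to 3986 genes in HC nuclei, 1373 to 9820 in NE nuclei and 3314 to 12220 in whole cells, so their values stand side by side with no comparison. The sorted identity itself was incompletely read in these nuclei: *Prox1* RNA was found in 100% of whole cells, 34 of 41 FOS- and 33 of 40 FOS+ nuclei, and 14 of 23 HC nuclei. After thinning to 50000 counts, with any count left taken as detection, *Neurod1* was found in 76.9%, 72.8%, 28.2%, 24.1% and 12.9% of saline-treated cells, PTZ-treated cells, FOS-, FOS+ and HC nuclei. *Sox11* was found in 51.6%, 59.4%, 37%, 45.9% and 35.7%. For both genes the order of the groups was the same as before thinning.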

How the data were processed

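Whole cells and nuclei were sequenced as single-cell libraries. Per the labels and the study's methods, the authors trimmed reads, aligned them with RSEM (Bowtie 1.0.0) to mm10 with Ensembl genes and deposited expected counts and TPM per gene symbol. Reads were counted on transcripts without strand being stated, so genes that overlap a member on the other strand (*Gm26755* at *Neurod1*, *Gm26735* at *Sox4*, *Gm33460* at *Eomes*) cannot be told apart from it. Estimated counts need not be whole, and they were rounded for thinning and for size factors. A thinned share is the expected share of cells with any count left among 50000, not with TPM above 1. Cells were kept with a total above 50000 counts and a number of genes above the mean minus 2 SD of their table; all 23 HC nuclei were kept (1 lay below the second limit). Totals ran from 401331 to 2696043 counts in saline-treated cells, 67212 to 5129240 in PTZ-treated cells, 63775 to 1060516 in FOS- nuclei, 80096 to 1035170 in FOS+ nuclei and 107647 to 278779 in HC nuclei. Counts were summed per group and scaled by the summed total. Genes with TPM above 1 in at least 5 cells were compared; a 2-fold ratio (floor of 3 counts per group) or 20 points of detection share was the call. Named genes followed a rule: all members, at most 4 genes of each other list by detection share or its difference, and the 3 genes most like each member found in at least 20% of whole cells, from rho = 0.5. Exceptions were named after their values were seen. They are *Mki67*, *Arc*, *Fos*, *Gja1*, the young neuron genes given for the cells with high *Igfbpl1*, and the genes of single cells that stood apart. Positions and shared 31-base stretches came from GENCODE on GRCm38. The members and lists were chosen with earlier results of these data known. Scripts used Python 3.11.15, scipy 1.17.1, edgeR 4.0.16 and DESeq2 1.42.0 (the last 2 for scaling factors), and were tested on simulated data. Alternatives were other detection limits, no cell filter, thinning, other scalings, cells left out and each amplification condition alone.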

Additional observations from a re-analysis of the deposited data

How the results depend on the processing

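No paired analysis was possible because replicate numbers follow accession order and no test was run. Depth bounds what can be read of rare markers, such as *Igfbpl1* in FOS+ nuclei with 11.6 counts in all. For PTZ-treated against saline-treated cells, the number of markers higher by 20 points went from 2 to 1 with detection at TPM above 5 or with all cells, and to 0 with a rounded count of at least 5, thinning to 50000 counts, or without the cells that stood apart; 2 markers passed a 4-fold rule in place of 4. For FOS+ against FOS- nuclei, the number at least 2-fold higher in FOS+ nuclei went from 1 to 2 with all nuclei or no filter on low values, to 0 with mean TPM or a 4-fold rule, and to 3 with 10 μM TSO and ERCC at 1 to 2000 alone; the number at least 2-fold higher in FOS- nuclei went from 2 to 0 with 10 μM and 1 to 200 alone and to 1 with 10 μM and 1 to 2000 alone. Taken alone, the condition of 1 μM and 1 to 200 gave 1 marker higher by 20 points in FOS+ nuclei, and each of the other 3 conditions gave 1 higher in FOS- nuclei, in place of 0. Of the 3 markers past 2-fold in all nuclei, each turned within a condition: *Dcx* to 3.09 (1 μM, 1 to 200), *Neurod2* to -0.44 (10 μM, 1 to 200) and *Igfbpl1* to 0.65 (10 μM, 1 to 2000). The value for *Igfbpl1* rests on 5.21 against 2.82 counts, and the second was set to the floor of 3, so it is a bound. At 10 μM and 1 to 200 *Igfbpl1* had 1.11 against 0 CPM, from 2 counts against 0. Of those under 2-fold, *Sox11* turned in 1 condition and *Neurod1* and *Tubb3* in 2 each. Whole cells with at least 5 markers numbered 15, of which 6 lay at or below and 9 above the median total of their group; NE nuclei with at least 5 markers numbered 5, and 1 with detection at TPM above 5 or at or below the median total. Markers found in at least 20% of FOS- nuclei went from 5 to 3 with thinning or a count of at least 5, and in FOS+ nuclei from 3 to 5 at TPM above 0. The causes were not tested. The other 89 summary values stayed close to the reported ones (counts within 1.5 times). The alternatives without the cells or the nucleus that stood apart were chosen after the data were seen.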
